A study of Mus musculus with 7 samples.

Results

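The genes described here carry glucose from the cell surface to pyruvate and decide what becomes of pyruvate. They were taken by symbol from a list of 34 mouse genes. All 34 were found among the 47729 gene identifiers of the deposited count table, and all 34 passed the filter on low counts that left 19188 genes to test. RNA came from the aorta of mice, with 4 libraries labelled wild type (WT) and 3 labelled *Mmp19* knockout (KO, written Mmp19-/- in the series' design). The deleted gene encodes a metalloproteinase that is secreted and cleaves extracellular matrix. The comparison asks which aortic transcripts differ when it is deleted. The labels name no treatment, strain, age or sex, do not say whether the deletion covers the whole body, and do not state that each library is a separate mouse. P-values therefore measure the spread between these 7 libraries, which may be technical in part.

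Glucose enters cells through facilitative transporters of the GLUT family and is held there by hexokinase, which adds a phosphate group. Phosphofructokinase commits it to glycolysis, the chain of cytosolic enzymes that ends in pyruvate with a net yield of ATP. Pyruvate is then either reduced to lactate by lactate dehydrogenase and exported by monocarboxylate transporters, or oxidised in mitochondria by the pyruvate dehydrogenase complex, which its kinases switch off. Most steps have several isoforms, some found in nearly all cells and others typical of muscle, fat, nerve or blood cells. Vascular smooth muscle is known for making lactate even when oxygen is plentiful.

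Library totals lay between 68151472 and 76926790 estimated counts. *Mmp19* itself read 24.8, 24.8, 20.6 and 34.7 CPM (the share of counts after scaling of libraries to a common size, per 1000000 counts) in WT replicates 1 to 4 and 25.5, 11.9 and 15.9 CPM in KO replicates 1 to 3. Its log2 fold change was -0.56 (standard error 0.29, edgeR adjusted p = 0.368), with the first KO library at a WT level. Which part of the gene was deleted is not stated in the labels, and KO stands throughout for the label. Contractile smooth muscle markers, which define the tissue named in the labels, were abundant in every library, with summed levels of 19253 to 21336 CPM in WT and 3864 to 14517 CPM in KO. Several libraries stood apart in other cell types' markers. KO replicate 1 had the highest summed macrophage and neutrophil markers (4809 and 481 CPM), KO replicate 2 the highest striated muscle markers (1362 CPM), KO replicate 3 the highest erythroid markers (7181 CPM) and WT replicate 3 the highest nerve markers (1188 CPM). In RNA of a whole tissue, fewer cells of a type and less RNA per cell cannot be told apart.

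In the pathway as a whole no gene was called by the main test. None of the 34 genes passed edgeR's quasi-likelihood test, where the smallest adjusted p was 0.166 (for *Pfkp*), and 0.0156% of all tested genes were called (3 genes, all higher in KO). An unadjusted p under 0.05 was reached by 6 genes of the pathway, or 17.6%, beside 17.2% of all genes (9.92% higher and 7.27% lower). These were *Hk3*, *Pfkfb4*, *Eno3* and *Ldha*, higher in KO, and *Pfkm* and *Pfkp*, lower in KO. The KO and WT libraries did not overlap for 6 genes (17.6%), the same without *Ldha* and with *Pdk3*, beside 16.7% of all genes (8.17% with KO above and 8.56% with KO below). DESeq2 called 5 of the 31 genes to which it gave an adjusted p, 3 higher (*Hk3*, *Pfkfb4*, *Eno3*) and 2 lower (*Pfkm*, *Pfkp*). That is 16.1%, beside 9.2% of all genes (6.04% higher and 3.15% lower). The median log2 fold change was 0.062 over the 34 genes, with 18 positive and 16 negative, and -0.028 over all tested genes with a symbol. Its direction rested on KO replicate 3, without which it was -0.17 (10 positive, 24 negative). It was 0.20 (22 positive, 12 negative) without KO replicate 2 and 0.19 (21 positive, 13 negative) without WT replicate 2. With KO replicate 2 left out, the library of its group with values nearest to WT, edgeR called 4 of the 34 genes (*Hk3*, *Pfkfb4*, *Pfkm*, *Pfkp*). Over all genes it then called 1029 of 19961 tested, 667 higher and 362 lower.

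**Figure D1:**
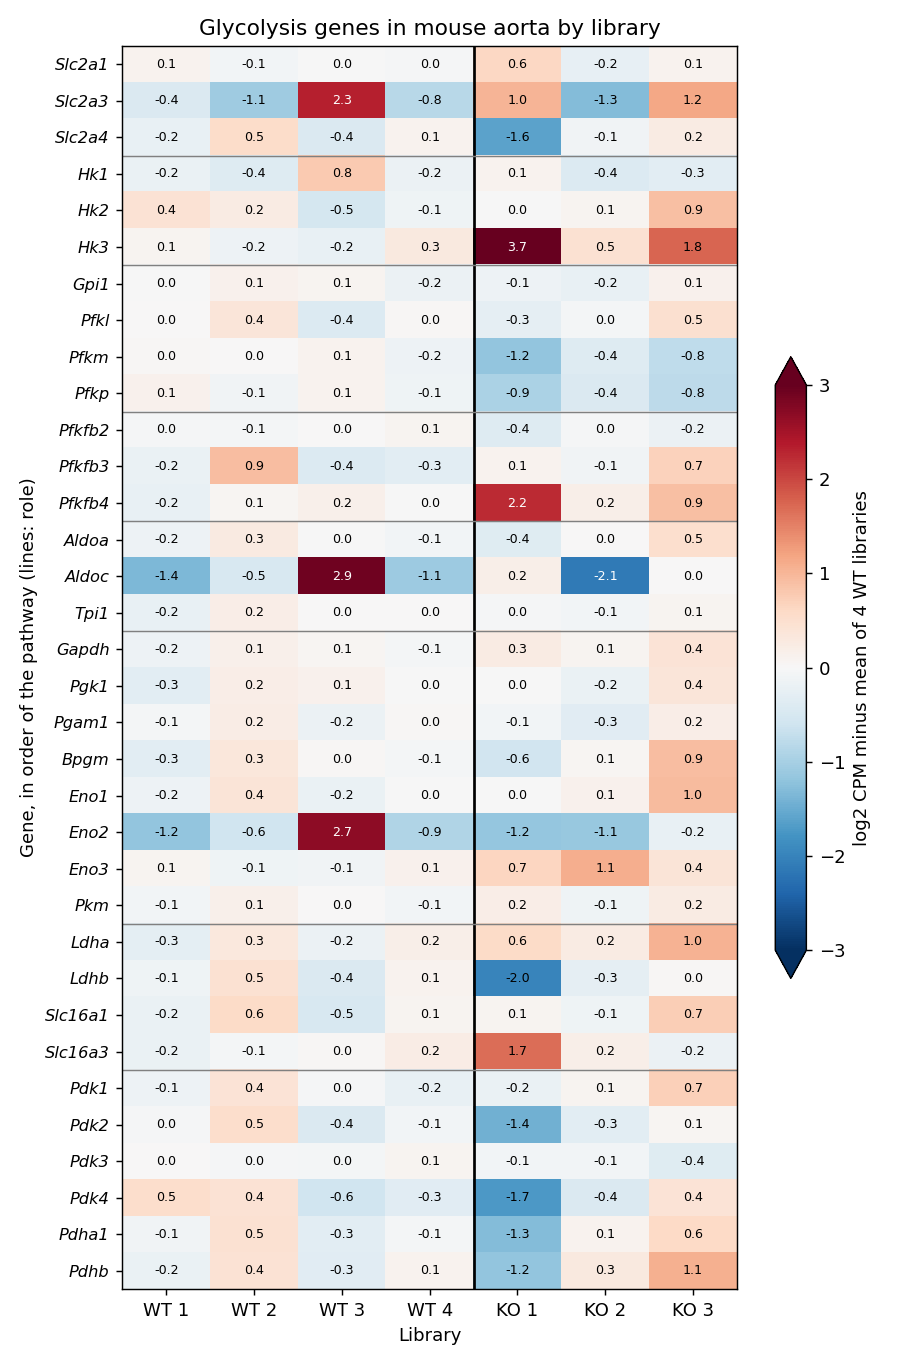
Difference of each gene's log2 CPM from the mean of the 4 WT libraries, by library, with genes in order of the pathway (horizontal lines part the roles, the vertical line parts WT from KO). *Hk3* reaches 3.69 in KO replicate 1 and *Eno2* 2.68 in WT replicate 3, while *Gpi1*, *Tpi1* and *Pkm* lie no further than 0.25 from zero in any library.

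Levels ranged widely between the genes of the pathway. Per 1000 bases of coding-transcript exons, the WT means of several enzymes of the common trunk were high. They were 392 CPM for *Aldoa*, 326 for *Gapdh*, 240.3 for *Pkm* and 219 for *Eno1*. The WT ranges of *Aldoa* and *Gapdh* overlapped, as did those of *Pkm* and *Eno1*, so the order within each pair is not resolved. The trunk enzymes *Pgam1*, *Tpi1*, *Gpi1* and *Pgk1* stood at 114, 113, 108 and 106, below *Pdha1* (186) outside the trunk. At the phosphofructokinase and hexokinase steps the levels were lower still. *Pfkp*, *Pfkl* and *Pfkm* stood at 42.6, 33.3 and 28 CPM per 1000 bases, and *Hk1* and *Hk2* at 17 and 16.4. The scarcest were *Hk3* (0.722), *Aldoc* (1.18) and *Pfkfb4* (1.76). The *Aldoc* mean rested on WT replicate 3 and was 0.265 without it, below *Hk3* (0.757 without the same library). The *Slc2a3* mean of 3.19 rested on that library as well. It was 1.11 without it, below *Pfkfb4* (1.70 without the same library). Lengths come from the annotation and not from the transcripts in these cells: with all annotated exons *Pfkp* would stand at 13.7 and below *Pfkl* (18.6) and *Pfkm* (25.1). By that length *Gapdh* (118) and *Eno1* (104) would lie below *Pkm* (125), *Pdha1* (142) and *Pdk4* (160). *Aldoa* would stay the highest at 246. Spread between libraries was small for *Gpi1*, *Tpi1* and *Pkm*, whose highest library exceeded the lowest 1.28-fold, 1.35-fold and 1.30-fold. It was large for *Aldoc* (35.6-fold), *Hk3* (15.2-fold), *Eno2* (14.6-fold) and *Slc2a3* (12.6-fold).

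**Figure D2:**
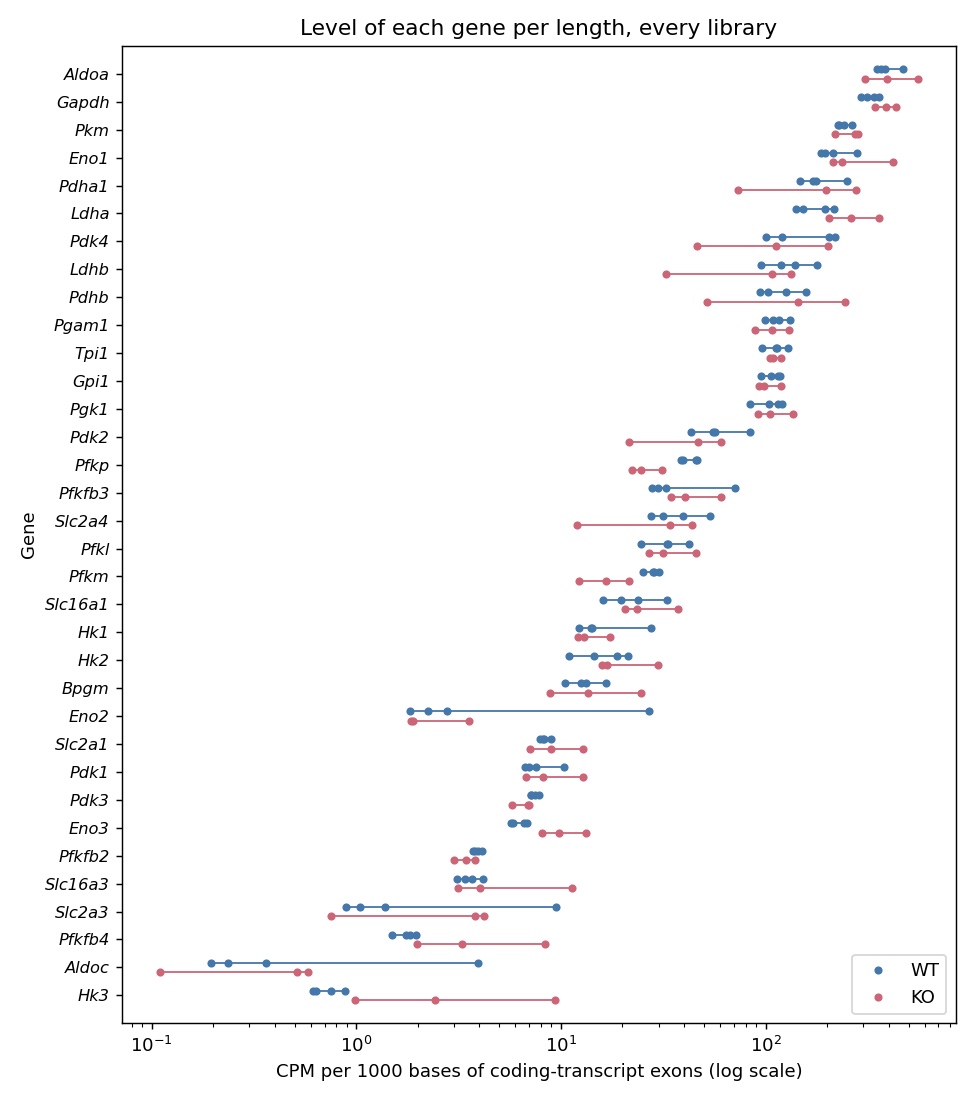
Level of each gene per 1000 bases of coding-transcript exons (horizontal log axis) in every WT (blue) and KO (red) library, with a line from the lowest to the highest of each group and genes sorted by the WT mean. *Hk3*, *Pfkfb4* and *Eno3* lie to the right in KO and *Pfkm*, *Pfkp* and *Pdk3* to the left, with no overlap of the groups, and single WT points stand far to the right for *Eno2*, *Slc2a3* and *Aldoc*.

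Of the 3 glucose transporters, none passed a test and all overlapped between the groups. *Slc2a4*, the insulin-responsive transporter GLUT4 of muscle and fat, was the most abundant per length in WT (38.1 CPM per 1000 bases, beside 8.33 for *Slc2a1* and 3.19 for *Slc2a3*). It read 88.1, 151, 77.2 and 112 CPM in WT and 33.7, 95.9 and 122 CPM in KO. Only KO replicate 1 lay below the WT range, and the log2 fold change of -0.35 (standard error 0.43, edgeR adjusted p = 0.713) became 0.026 without that library. *Slc2a1*, the widely expressed GLUT1, read 29.2, 25.7, 27.1 and 26.7 CPM in WT and 41.6, 23 and 29.2 CPM in KO. Its groups overlapped, with KO replicate 1 the highest library (log2 fold change 0.20, standard error 0.20, edgeR adjusted p = 0.637, and -0.066 without that library). *Slc2a3*, the high-affinity transporter GLUT3 of neurons and leukocytes, read 5.45, 3.53, 37.3 and 4.15 CPM in WT and 15, 2.97 and 16.7 CPM in KO. WT replicate 3 stood far above the other WT libraries, and the log2 fold change of -0.12 (edgeR adjusted p = 0.960) turned to 1.40 without it (edgeR adjusted p = 0.369). Without that library the WT mean per 1000 bases was 1.11 CPM.

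Hexokinase 3, the isoform of myeloid cells, was higher in every KO library. *Hk3* (chromosome 13, 55005985 to 55021385, GRCm38) read 2.54, 2.14, 2.06 and 2.94 CPM in WT and 31.3, 3.31 and 8.15 CPM in KO. KO replicate 2 was just above the WT range, and KO replicate 1 lay about an order of magnitude above it. The means were 14.3 ± 15 CPM in the KO libraries (SD, n = 3) against 2.42 ± 0.406 CPM in the WT libraries (SD, n = 4), a log2 fold change of 2.56 (standard error 0.67, edgeR adjusted p = 0.178). DESeq2 gave an adjusted p of 0.00197, and the log2 fold change was 1.24 without KO replicate 1 (edgeR adjusted p = 0.337). All 15 macrophage and monocyte markers of the list were positive in the same comparison, with summed levels of 479.6, 430.3, 339.8 and 596 CPM in WT and 4809, 790.4 and 1483 CPM in KO. No defining marker of that list was at 0 in any library. The KO libraries stood in the order replicate 1, 3, 2 for *Hk3* and for these markers alike, and the markers' part in the *Hk3* difference was not tested.

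The more abundant hexokinases overlapped between the groups. *Hk1*, the mitochondria-bound form found in most tissues, read 68.4, 59.5, 134 and 68.8 CPM in WT and 83.9, 59.1 and 63.1 CPM in KO. WT replicate 3 was well above the other WT libraries, and the log2 fold change of -0.27 (standard error 0.30, edgeR adjusted p = 0.687) was 0.068 without it. *Hk2*, the insulin-regulated form typical of muscle and fat, read 120.0, 105, 61.8 and 81.1 CPM in WT and 89.2, 94.6 and 168 CPM in KO. KO replicate 3 was the highest library and the others overlapped (log2 fold change 0.35, standard error 0.30, edgeR adjusted p = 0.585, and 0.0092 without KO replicate 3).

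Phosphofructokinase, the committing enzyme of glycolysis, showed the clearest lower values in KO, and they concerned the muscle-type and the platelet-type subunit together. *Pfkm*, the muscle subunit (chromosome 15, 98092589 to 98132451), read 85.3, 84.4, 90.3 and 75.4 CPM in WT and 36.8, 64.2 and 49.6 CPM in KO. Every KO library lay below every WT library. The means were 50.2 ± 13.7 CPM in the KO libraries (SD, n = 3) against 83.8 ± 6.21 CPM in the WT libraries (SD, n = 4), a log2 fold change of -0.74 (standard error 0.19, edgeR adjusted p = 0.174). *Pfkp*, the platelet subunit, which many tissues express (chromosome 13, 6579768 to 6648777), read 199, 170.0, 196 and 167 CPM in WT and 95.2, 135 and 106 CPM in KO, again without overlap. Its means were 112 ± 20.4 CPM in the KO libraries (SD, n = 3) against 183 ± 16.9 CPM in the WT libraries (SD, n = 4), a log2 fold change of -0.71 (standard error 0.15, edgeR adjusted p = 0.166). DESeq2 called both, with adjusted p-values of 0.0131 and 0.00244. Without KO replicate 1 the log2 fold changes were -0.57 and -0.61 (edgeR adjusted p = 0.292 and 0.285). *Pfkl*, the liver subunit, also broadly expressed, overlapped between the groups at 123, 157, 91.7 and 125 CPM in WT and 100.5, 118 and 169.8 CPM in KO (log2 fold change 0.060, standard error 0.23, edgeR adjusted p = 0.919).

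Markers of contractile smooth muscle were lower in the same libraries. Their summed levels were 21231, 19253, 19496 and 21336 CPM in WT and 3864, 14517 and 7724 CPM in KO, and all 10 had a negative log2 fold change, with none at 0 in any library. *Pfkm*, *Pfkp* and these markers ranked the KO libraries alike, with replicate 2 closest to WT, then 3, then 1. That order was not particular to them, since the summed macrophage and neutrophil markers, *Hk3* and *Pfkfb4* had it too. The part of contractile markers in the phosphofructokinase values was not tested. The annotated gene *Pitrm1* overlaps *Pfkp* by 748 bases on the other strand, and *Senp1* overlaps *Pfkm* by 1156. Their log2 fold changes were -0.023 and 0.11, and no source used here gives the strand setting of the counts.

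The other enzymes of upper glycolysis overlapped between the groups. *Gpi1*, glucose-6-phosphate isomerase, read 307, 338, 331 and 274 CPM in WT and 282, 267 and 341 CPM in KO. *Aldoa*, the aldolase of muscle and most other tissues, averaged 760.1 ± 230.4 CPM in the KO libraries (SD, n = 3) against 715 ± 98.5 CPM in the WT libraries (SD, n = 4), and KO replicate 3 held its highest value, 1010.0 CPM. *Tpi1*, triosephosphate isomerase, averaged 196 ± 12.6 CPM in the KO libraries (SD, n = 3) against 199 ± 23.9 CPM in the WT libraries (SD, n = 4). The log2 fold changes of these genes were -0.074, 0.087 and -0.020, with edgeR adjusted p-values of 0.822, 0.877 and 0.951. *Aldoc*, the brain aldolase, read 0.580, 1.08, 11.7 and 0.706 CPM in WT and 1.74, 0.328 and 1.53 CPM in KO. All its libraries other than WT replicate 3 were below 2 CPM, and its log2 fold change of -1.55 became 0.60 without that library.

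Bifunctional enzymes of the PFKFB family set the level of fructose-2,6-bisphosphate, the strongest activator of phosphofructokinase, and 1 of the 3 was called by DESeq2. *Pfkfb4* (chromosome 9, 108991778 to 109032228), an isoform first known from testis and induced by hypoxia in many cells, read 5.23, 6.42, 6.87 and 6.11 CPM in WT and 29.1, 6.89 and 11.4 CPM in KO. KO replicate 2 exceeded the highest WT library by less than the spread of WT, while KO replicate 1 stood well apart. The means were 15.8 ± 11.7 CPM in the KO libraries (SD, n = 3) against 6.16 ± 0.690 CPM in the WT libraries (SD, n = 4), with a log2 fold change of 1.36 (standard error 0.44, edgeR adjusted p = 0.209) and a DESeq2 adjusted p of 0.0360. Without KO replicate 1 the log2 fold change was 0.57 (edgeR adjusted p = 0.458). Neutrophil markers showed summed levels of 12.4, 24.8, 10.9 and 12.4 CPM in WT and 481, 16.3 and 66.2 CPM in KO, with 7 of 9 tested markers positive, and ranked the KO libraries in the same order. *Ly6g*, a defining neutrophil marker, read 0.281 CPM or less throughout, and was at 0 in 3 WT libraries, while *Mmp8*, *Retnlg* and *Camp* were each at 0 in 1 WT library. The part of these markers in the *Pfkfb4* difference was not tested. *Pfkfb3*, the main isoform of proliferating and endothelial cells, read 180.3, 391, 154 and 165 CPM in WT and 223, 190.2 and 335 CPM in KO. *Pfkfb2*, the heart isoform, read 19.1, 18.6, 19.9 and 20.7 CPM in WT and 15.1, 19.1 and 17.2 CPM in KO. Both overlapped between the groups, with log2 fold changes of 0.16 and -0.19 (edgeR adjusted p = 0.857 and 0.484). The annotated gene *Yod1*, at a mean of 16.5 CPM, overlaps *Pfkfb2* by 7032 bases on the other strand. With the strand setting not given, the level of *Pfkfb2* is uncertain.

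In lower glycolysis the muscle enolase was higher in every KO library. Enolase makes phosphoenolpyruvate, the last intermediate before pyruvate, and has a broadly expressed, a neuronal and a muscle isoform. *Eno3*, the muscle isoform (chromosome 11, 70657202 to 70662513), read 10.4, 8.98, 9.12 and 10.7 CPM in WT and 15.4, 20.8 and 12.7 CPM in KO, without overlap. Its means were 16.3 ± 4.13 CPM in the KO libraries (SD, n = 3) against 9.79 ± 0.865 CPM in the WT libraries (SD, n = 4), a log2 fold change of 0.74 (standard error 0.19, edgeR adjusted p = 0.178), and DESeq2 gave an adjusted p of 0.0114. The log2 fold change kept to between 0.57 and 0.90 when each library was left out in turn. Striated muscle markers, of heart and skeletal muscle, had summed levels of 116, 71, 35.8 and 35.1 CPM in WT and 869, 1362 and 232 CPM in KO, and all 16 were positive. Their sum ranked the KO libraries as *Eno3* did, with replicate 2 the highest and replicate 3 the lowest. Single markers were divided. The heart genes *Myh6*, *Actc1*, *Tnnt2* and *Nppa* had that order, while the skeletal genes *Acta1*, *Myh1* and *Tnnt3*, and also *Ckm*, were highest in KO replicate 3. Of the 16 markers, the heart marker *Nppa* was at 0 in KO replicate 3 and the skeletal marker *Myh1* at 0 in KO replicate 1, while *Myl2* was at 0 in 3 WT libraries and *Myh4* in 1. Their part in the *Eno3* difference was not tested. *Pgam2*, the muscle form of phosphoglycerate mutase and not among the 34 genes, read 1.47, 1.08, 1.48 and 0.923 CPM in WT and 7.24, 9.30 and 3.79 CPM in KO, with the same order of the KO libraries (log2 fold change 2.45, standard error 0.36, edgeR adjusted p = 0.165).

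*Eno1*, the broadly expressed enolase, read 495, 715, 475 and 543 CPM in WT and 545, 601 and 1063 CPM in KO. KO replicate 3 was the highest library and the other KO libraries lay inside the WT range (log2 fold change 0.40, standard error 0.27, edgeR adjusted p = 0.491, and 0.050 without KO replicate 3). *Eno2*, the neuronal enolase, read 5.14, 7.73, 75 and 6.24 CPM in WT and 5.19, 5.28 and 9.95 CPM in KO. A single library set its group difference, since the log2 fold change of -1.79 (standard error 1.04, edgeR adjusted p = 0.420) was 0.096 without WT replicate 3. Markers of neurons and glia had summed levels of 18.5, 27.8, 1188 and 28.8 CPM in WT and 29.8, 23.8 and 156 CPM in KO, so that the same library stood out. In WT replicate 3 the neuronal genes *Th* and *Syt1* read 212 and 187 CPM, and in the other WT libraries 0.855 CPM or less. At 0 were *Nefl* in WT replicates 1 and 2 and KO replicate 2, *Snap25* in KO replicates 1 and 2 and *Syt1* in KO replicate 1. *Slc2a3*, *Hk1* and *Aldoc* had their highest value in that library as well, and the markers' part in these values was not tested. Without WT replicate 3 no gene of the pathway passed edgeR's test.

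None of the remaining steps to pyruvate was called by either tool. *Gapdh*, which makes the first high-energy phosphate of the pathway, read 437, 536, 507 and 467 CPM in WT and 577, 514 and 649 CPM in KO (log2 fold change 0.25, standard error 0.14, edgeR adjusted p = 0.411). The table also held 73 near-identical copies of it, with counts equal to between 41.4% and 44.9% of its own, so that its level is uncertain. *Pgk1*, phosphoglycerate kinase, averaged 202 ± 41 CPM in the KO libraries (SD, n = 3) against 194 ± 29.2 CPM in the WT libraries (SD, n = 4), and *Pgam1*, the brain-type phosphoglycerate mutase found in most tissues, 193 ± 36 CPM in the KO libraries (SD, n = 3) against 202 ± 23.9 CPM in the WT libraries (SD, n = 4). *Pkm*, pyruvate kinase of muscle and most other tissues, averaged 675 ± 91.4 CPM in the KO libraries (SD, n = 3) against 624 ± 48.5 CPM in the WT libraries (SD, n = 4). Counts per gene do not part its M1 and M2 splice forms. The log2 fold changes of *Pgk1*, *Pgam1* and *Pkm* were 0.064, -0.066 and 0.11 (edgeR adjusted p = 0.887, 0.869 and 0.739). *Bpgm*, which makes 2,3-bisphosphoglycerate in red blood cells, read 23.2, 36.7, 29.6 and 27.8 CPM in WT and 19.5, 30.1 and 54.6 CPM in KO. It was highest in KO replicate 3, and WT replicate 2 came next (log2 fold change 0.24, standard error 0.33, edgeR adjusted p = 0.743, and -0.24 without KO replicate 3). Erythroid markers, mostly haemoglobin chains, had summed levels of 638, 2721, 1249 and 1360.3 CPM in WT and 789, 2303 and 7181 CPM in KO. The same pair of libraries was on top. That pair was not particular to them, since *Eno1*, *Aldoa*, *Pgk1*, *Pfkl* and the summed adipocyte markers had it too. The erythroid marker *Klf1* was at 0 in WT replicate 2 and KO replicate 3. The part of erythroid markers in the *Bpgm* values was not tested.

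At the branch to lactate, the ratio of *Ldhb* to *Ldha* was lower in every KO library than in every WT library, though it did not pass after adjustment. *Ldha* encodes the muscle-type subunit, associated with making lactate, and *Ldhb* the heart-type subunit, associated with using it. The starts of both genes are shown because this pair gave the 1 isoform ratio whose groups did not overlap. They run from 250 bases before to 50 after the start of transcription (RefSeq, GRCm38.p6), for *Ldha* at chr7:46845554-46845853 on the plus strand and for *Ldhb* at chr6:142507908-142508207 on the minus strand. Capitals mark ACGTG on either strand, the core of the site that hypoxia-inducible factors and several E-box proteins bind, and CACGTG holds a match on each strand.
Ldha: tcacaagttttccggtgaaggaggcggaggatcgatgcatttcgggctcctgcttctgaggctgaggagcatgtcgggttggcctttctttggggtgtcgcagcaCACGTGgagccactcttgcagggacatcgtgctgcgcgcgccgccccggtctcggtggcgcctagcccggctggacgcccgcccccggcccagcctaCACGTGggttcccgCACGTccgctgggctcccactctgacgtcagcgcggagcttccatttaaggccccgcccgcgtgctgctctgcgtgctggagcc
Ldhb: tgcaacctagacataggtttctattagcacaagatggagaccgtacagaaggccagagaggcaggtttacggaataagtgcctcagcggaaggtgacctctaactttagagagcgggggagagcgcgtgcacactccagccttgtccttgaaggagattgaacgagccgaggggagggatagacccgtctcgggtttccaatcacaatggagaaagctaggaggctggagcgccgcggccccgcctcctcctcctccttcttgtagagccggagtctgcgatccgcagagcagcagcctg
The *Ldha* stretch held 5 matches and the *Ldhb* stretch 0, while a second listed *Ldha* start held 0. Of the 32 genes of the pathway with a listed start (*Slc2a3* and *Slc2a4* had none), 19 had a match in at least 1 of their starts, beside 21.8% of 27025 genes. By single starts these were 23 of 48, beside 19.6% of 32851. A match is a description of the letters only.

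*Ldha* (chromosome 7, 46841475 to 46855627) read 269, 410.1, 291 and 371 CPM in WT and 495, 389 and 681 CPM in KO. KO replicate 2 lay inside the WT range and the other KO libraries above it. The means were 522 ± 148 CPM in the KO libraries (SD, n = 3) against 335 ± 66.6 CPM in the WT libraries (SD, n = 4), a log2 fold change of 0.64 (standard error 0.24, edgeR adjusted p = 0.236), and 0.41 without KO replicate 3. DESeq2 gave an adjusted p of 0.0914 over all libraries. *Ldhb* (chromosome 6, 142490249 to 142507957) read 155, 233, 124 and 181 CPM in WT and 42.7, 139.6 and 173 CPM in KO, with KO replicate 1 far below all others (log2 fold change -0.55, standard error 0.45, edgeR adjusted p = 0.570, and -0.15 without that library). The log2 ratio of *Ldhb* to *Ldha* within a library was -0.79, -0.81, -1.22 and -1.04 in WT replicates 1 to 4 and -3.53, -1.48 and -1.98 in KO replicates 1 to 3. Every KO library lay below every WT library, and the mean differed by -1.36. An exact 2-sided permutation test gave p = 0.0286, the smallest that 7 libraries allow, and 0.200 after adjustment over 7 ratios, which did not pass. Without KO replicate 1 the mean difference was -0.76.

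Of the lactate transporters, *Slc16a1* (MCT1, which works in both directions) read 86.7, 146, 71.4 and 105 CPM in WT and 105, 90.8 and 166 CPM in KO, with overlapping groups. *Slc16a3* (MCT4, the exporter of strongly glycolytic cells) read 13.9, 15.2, 16.3 and 18.4 CPM in WT and 50.5, 17.9 and 14 CPM in KO. Its log2 fold change of 0.78 (standard error 0.42, edgeR adjusted p = 0.382) rested on KO replicate 1 and was -0.0059 without it. KO replicate 1 is also the library with the highest macrophage and neutrophil markers given above.

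On the mitochondrial side no gene was called by either tool, and 4 of the 6 genes (*Pdha1*, *Pdhb*, *Pdk2*, *Pdk4*) had their lowest value in KO replicate 1. *Pdha1* and *Pdhb* encode the subunits of pyruvate dehydrogenase itself. *Pdha1* read 484, 712, 419 and 500.5 CPM in WT and 209.9, 562 and 786 CPM in KO. *Pdhb* read 156, 239.9, 142 and 190.2 CPM in WT and 78.1, 219 and 372 CPM in KO. For both, KO replicate 1 was the lowest and KO replicate 3 the highest of the 7 libraries, so the KO spread enclosed the WT spread. Their log2 fold changes were -0.026 (standard error 0.41, edgeR adjusted p = 0.981) and 0.29 (standard error 0.46, edgeR adjusted p = 0.781). They were 0.34 and 0.69 without KO replicate 1, and -0.45 and -0.29 without KO replicate 3. Of the kinases that switch the complex off, *Pdk4*, the fasting-induced isoform of muscle and fat, was the most abundant per length in WT (161 CPM per 1000 bases, beside 60.0 for *Pdk2*). It read 762, 715, 352 and 419 CPM in WT and 161, 392 and 704 CPM in KO. *Pdk2*, found in most tissues, read 128, 189, 97.4 and 125 CPM in WT and 48.3, 105 and 136 CPM in KO. Both were lowest in KO replicate 1, with log2 fold changes of -0.42 and -0.48 (edgeR adjusted p = 0.701 and 0.537). Without that library they were -0.041 and -0.17.

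Markers of fat had the same lowest and highest library as *Pdha1* and *Pdhb*. Adipocyte markers had summed levels of 4411, 8157, 4775 and 6986 CPM in WT and 3646, 6629 and 9074 CPM in KO. Of the 10 markers 7 were positive, but without KO replicate 3 only 1 was positive and 9 negative. *Ucp1*, the uncoupling protein of brown fat, read 429, 949.7, 291 and 760.0 CPM in WT and 92.2, 585 and 1283 CPM in KO, while *Elovl3* was at 1.14 CPM or less and at 0 in WT replicate 3. KO replicate 1 was lowest and KO replicate 3 highest for the marker sum and for *Ucp1*, as for *Pdha1* and *Pdhb*. That was not particular to them, since *Aldoa* and *Bpgm* had the same lowest and highest library. The part of fat in the *Pdha1* and *Pdhb* values was not tested. *Pdk1*, the isoform induced by hypoxia, averaged 47.9 ± 16.2 CPM in the KO libraries (SD, n = 3) against 40.8 ± 8.61 CPM in the WT libraries (SD, n = 4), with overlapping groups. *Pdk3* was low and steady, at 15.7, 15.1, 15.1 and 16.5 CPM in WT and 14.7, 14.7 and 12.2 CPM in KO. Its KO libraries lay below all WT libraries by a small margin, and the log2 fold change of -0.17 (standard error 0.13, edgeR adjusted p = 0.551) did not pass edgeR's or DESeq2's test (DESeq2 adjusted p = 0.595).

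Muscle-type isoforms did not move as a group against their broadly expressed partners. Of the 4 muscle-type genes 2 had a positive log2 fold change, and of their 5 partners 3. Among the muscle-type genes, *Eno3* lay higher and *Pfkm* lower in KO, and *Slc2a4* and *Hk2* overlapped between the groups. The log2 ratio of *Pfkm* to *Pfkl* was -0.53, -0.90, -0.022 and -0.72 in WT and -1.45, -0.88 and -1.77 in KO. KO replicate 2 lay inside the WT range, and the mean difference of -0.82 had an exact 2-sided permutation p of 0.0571 (0.200 adjusted over the 7 ratios). The ratio of *Pfkm* to *Pfkp* hardly varied, at -1.22, -1.01, -1.12 and -1.15 in WT and -1.37, -1.07 and -1.09 in KO, a mean difference of -0.054 with an exact permutation p of 0.629. For *Eno3* to *Eno1* the ratio was -5.58, -6.31, -5.70 and -5.66 in WT and -5.14, -4.85 and -6.38 in KO. KO replicate 3, where *Eno1* was high, had the lowest ratio of all libraries, and the mean difference of 0.35 had an exact permutation p of 0.457. That difference was 0.82 without KO replicate 3, 0.049 without KO replicate 2, 0.20 without KO replicate 1 and 0.19 without WT replicate 2.

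The ratio of *Slc2a4* to *Slc2a1* was 1.59, 2.55, 1.51 and 2.06 in WT and -0.30, 2.06 and 2.07 in KO. Only KO replicate 1 left the WT range, and it was the one library with a negative ratio. For *Hk2* to *Hk1* the ratio was 0.81, 0.83, -1.12 and 0.24 in WT and 0.088, 0.68 and 1.41 in KO, with the lowest value in WT replicate 3. The transporter ratio of *Slc16a3* to *Slc16a1* was -2.64, -3.27, -2.13 and -2.51 in WT and -1.05, -2.34 and -3.57 in KO. Mean differences of these ratios were -0.65, 0.54 and 0.32, with exact permutation p-values of 0.571, 0.486 and 0.686. Each rested on single libraries. The *Slc2a4* and the *Slc16a3* differences were 0.14 and -0.32 without KO replicate 1, and the hexokinase difference was 0.10 without WT replicate 3 and 0.19 without KO replicate 3. None of the 7 ratios passed after adjustment over all of them, and with 7 libraries a single ratio among these cannot.

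**Figure D3:**
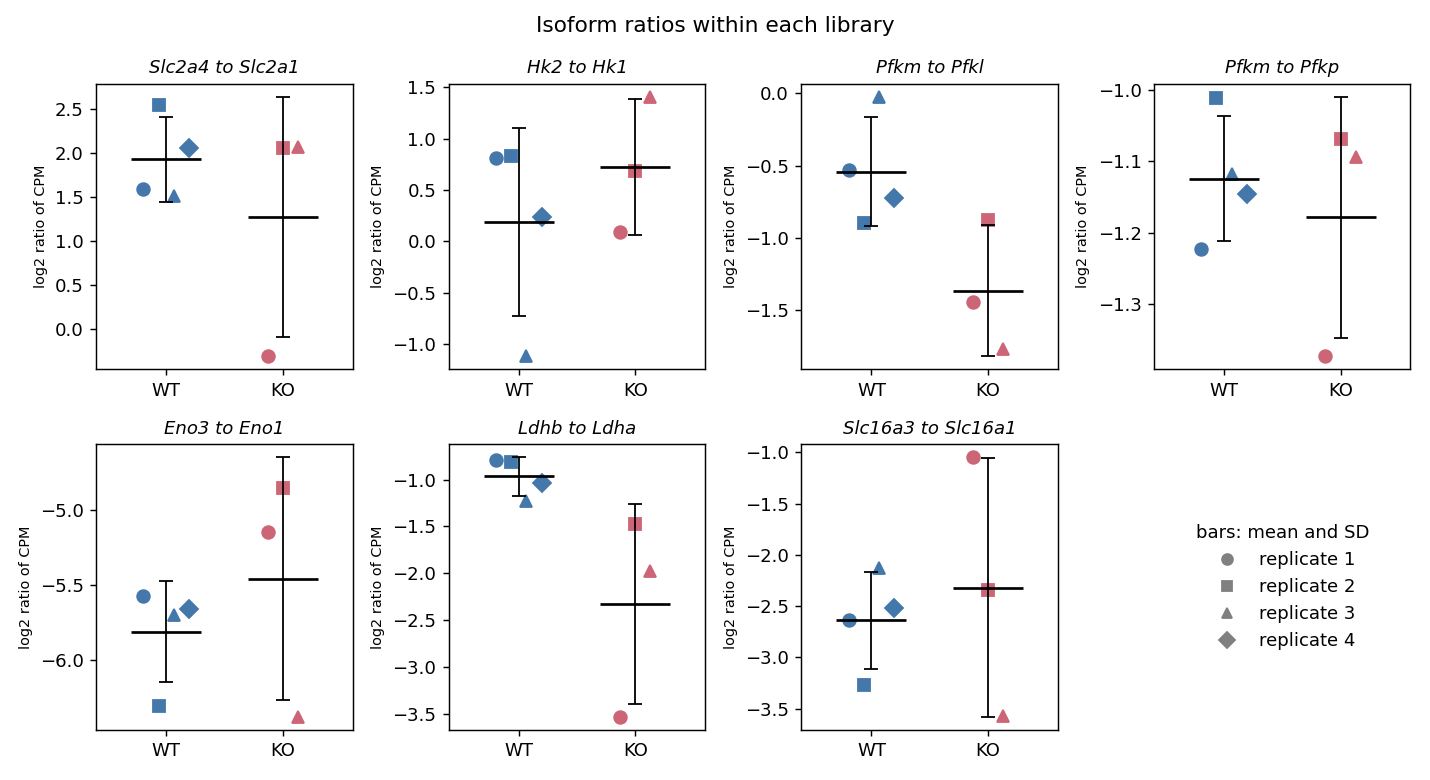
Log2 ratio of the CPM of gene pairs within each library (points; shape gives the replicate number, which does not pair libraries) for WT (blue) and KO (red), with the mean and SD of each group in black and a separate axis for each pair. Only for *Ldhb* to *Ldha* do all KO libraries (-3.53 to -1.48) lie below all WT libraries (-1.22 to -0.79), and *Pfkm* to *Pfkp* covers the narrowest range.

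**Figure D4:**
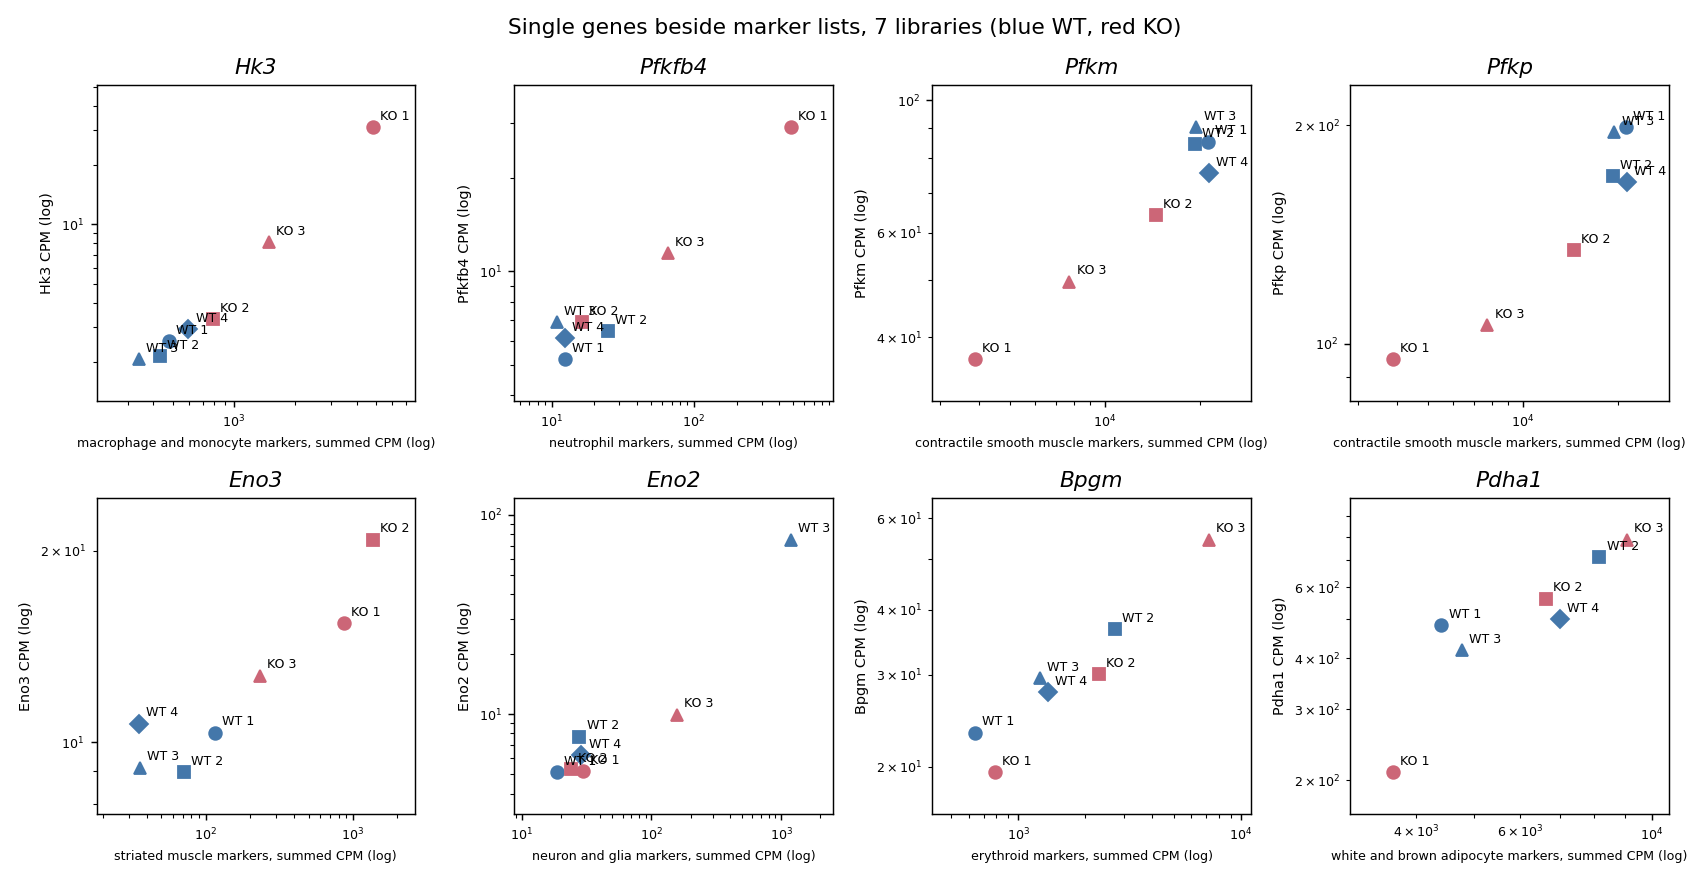
CPM of single genes (vertical log axes) against the summed CPM of a marker list (horizontal log axes) in the 4 WT (blue) and 3 KO (red) libraries, with each gene set beside the list after both had been seen. *Hk3* and *Pfkfb4* are highest in KO replicate 1, where leukocyte markers are highest, *Eno2* stands at 75 CPM in WT replicate 3, where nerve markers are highest, and *Pfkm* and *Pfkp* are lowest where contractile markers are lowest.

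Pathways that adjoin glycolysis were read from lists of their own, and edgeR called 0 of the 108 tested genes on these 7 lists over all genes tested. At an unadjusted p under 0.05, edgeR found 7 of them higher and 3 lower in KO, and DESeq2 called 2 higher (*Pgam2* and *Pgd*) and 0 lower. These shares, 9.26% and 1.87% of those with a DESeq2 adjusted p, lay below the 17.2% and 9.2% of all genes. Without KO replicate 2, edgeR called *Pgd*, *Myc* and *Pgam2* among the genes named from these lists (adjusted p = 0.0199, 0.0284 and 0.0333), all higher in KO. *Pygm* of the glycogen list was called lower in that fit (log2 fold change -0.76, edgeR adjusted p = 0.0469). Of all genes, 1029 of 19961 tested were called there. The pentose phosphate pathway, which branches off after hexokinase and makes NADPH, showed a median of 0.31 for the log2 fold changes of 10 genes, beside -0.028 over all genes, with 8 positive. Without KO replicate 3 it was 0.095 (6 positive, 4 negative). *Pgd*, its second dehydrogenase, read 68.4, 87.3, 74.1 and 84.1 CPM in WT and 198, 101 and 179 CPM in KO, without overlap, and *G6pdx*, its entry enzyme, 55.3, 77.9, 53.3 and 62.7 and 87.7, 73.3 and 102 CPM. Their log2 fold changes were 1.02 (standard error 0.23, edgeR adjusted p = 0.166) and 0.50 (standard error 0.17, edgeR adjusted p = 0.225), and DESeq2 gave *Pgd* an adjusted p of 0.00432. *H6pd*, the form of that entry enzyme in the endoplasmic reticulum, had a log2 fold change of 0.46 (edgeR adjusted p = 0.296).

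Glycogen genes had a median of -0.32 over 15 genes, with 11 negative, and -0.18 without KO replicate 1. *Pygb*, the brain form of glycogen phosphorylase, read 166, 167, 186 and 163 CPM in WT and 102, 145 and 126 CPM in KO, without overlap (log2 fold change -0.46, standard error 0.14, edgeR adjusted p = 0.197). *Gaa*, the lysosomal glucosidase that degrades glycogen, and *Phkg1*, the muscle catalytic subunit of phosphorylase kinase, had log2 fold changes of -0.32 and -0.43 (edgeR adjusted p = 0.240 and 0.261). The 18 genes of the tricarboxylic acid cycle, which oxidises the acetyl groups made from pyruvate, were all negative in this comparison, with a median log2 fold change of -0.29. That direction turned without KO replicate 1, where 11 were positive and 7 negative, with a median of 0.039. With WT replicate 3 left out as well, 3 were positive and 15 negative, with a median of -0.10. The median was -0.091 without WT replicate 2 and -0.66 without KO replicate 3. The other parts of the pyruvate dehydrogenase complex and the mitochondrial pyruvate carrier had a median of 0.0082 over 11 genes. It was 0.34 (7 positive, 4 negative) without KO replicate 1 and -0.31 (0 positive, 11 negative) without KO replicate 3, so these libraries lay on opposite sides. Of the cycle, the genes with the smallest p were *Idh2* (-0.44), *Ogdh* (-0.42) and *Suclg2* (-0.26), with log2 fold changes in parentheses. Of the other list they were *Pck2* (-0.19), which makes phosphoenolpyruvate in mitochondria, and *Pdp2* (-0.51) and *Pdpr* (-0.26) of the phosphatase that switches the complex on. Neither list held a gene with an unadjusted p under 0.05 in edgeR.

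Regulators of glycolysis and other targets of hypoxia-inducible factors showed no common direction. The regulators had a median of -0.073 over 20 genes. *Hif1a*, the oxygen-regulated subunit of the factor, read 158, 133, 139 and 146 CPM in WT and 319, 143 and 172 CPM in KO, and *Myc*, which induces many glycolytic genes, 10.9, 8.11, 7.20 and 7.75 and 29.7, 7.61 and 19.7 CPM. Both had their highest value in KO replicate 1 and overlapped between the groups (edgeR adjusted p = 0.337 and 0.227). Their log2 fold changes of 0.55 and 1.16 were 0.12 and 0.68 without that library. *Arrdc4*, a glucose-induced arrestin that lowers glucose uptake, read 17.3, 11.1, 15 and 11.2 and 37.5, 18.7 and 19.2 CPM, without overlap (edgeR adjusted p = 0.215), with a log2 fold change of 0.88, and 0.46 without KO replicate 1. The 14 hypoxia targets outside glycolysis had a median of 0.042, with 7 positive and 7 negative. *P4ha1*, a collagen prolyl hydroxylase subunit with the smallest p among them, read 102, 73.6, 81.8 and 113 CPM in WT and 185, 189 and 90.3 CPM in KO (edgeR adjusted p = 0.238). *Adm*, the vasodilator adrenomedullin, and *Kdm3a*, a histone demethylase, had log2 fold changes of 0.42 and -0.14. The remaining glycolysis genes, of which 20 of 25 were tested, had a median of -0.10. *Pgm2*, a phosphoglucomutase, read 10.3, 10.3, 8.89 and 13.8 and 27.3, 13.6 and 16.2 CPM, and *Slc2a8*, an intracellular glucose transporter, 15, 19.4, 17.9 and 19.2 and 11.9, 15.2 and 15.3 CPM (edgeR adjusted p = 0.214 and 0.323). The log2 fold change of *Pgm2*, 0.81, was 0.46 without KO replicate 1.

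The KO libraries also differed among themselves. Of the 34 genes, 14 had their highest value in KO replicate 3, among them *Eno1*, *Ldha*, *Aldoa*, *Gapdh* and *Pkm*, and 1 (*Pdk3*) their lowest. In KO replicate 1, 4 genes were highest (*Slc2a1*, *Hk3*, *Pfkfb4*, *Slc16a3*) and 11 lowest. KO replicate 2 held 1 highest value (*Eno3*) and 7 lowest values. By the size of the difference from the WT mean, more than 1 on the log2 scale, KO replicate 1 had 4 genes above and 8 below, KO replicate 2 had 1 and 3, and KO replicate 3 had 4 and 0. Among the lowest values of KO replicate 1 were those of *Pdha1*, *Pdhb*, *Pdk2*, *Pdk4*, *Ldhb* and *Slc2a4*. Endothelial markers had summed levels of 1553 to 1703 CPM in WT and 909 to 1633 CPM in KO, and fibroblast markers 5699 to 10119.5 and 7659 to 11854 CPM.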

How the data were processed

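Aorta RNA was extracted with Trizol, and libraries were made from 2 µg by SMARTER mRNA-Seq, both per the labels' protocols. The deposited values are the authors' estimated counts for each gene in 1 table, already whole numbers and without scaling between libraries. The submitters' processing notes name the builds GRCm38 and mm10. Not given in the sources used here are the aligner, counter, annotation and strand setting. Low counts pile up at multiples of 4 (1.33 to 1.48 times as frequent as their neighbours between 8 and 40), and no source used here explains this.

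Symbols were found for 47224 of 47729 identifiers, and the 505 others held 0.0490% to 0.0711% of a library's counts. Positions and lengths are GENCODE M21 (GRCm38, 1-based). KO was compared with WT in R 4.3.3 with edgeR 4.0.16 (filterByExpr, TMM, glmQLFit and glmQLFTest, no covariates, Benjamini-Hochberg adjustment over all tested genes, threshold 0.05) on the counts as deposited. The procedure was tested on simulated data, but its power to find changes of the size seen here is not reported. With counts divided by 4, no 2 libraries agreed within sampling noise (the smallest chi-square averaged over genes was 20.4). Isoform ratios are differences of log2 CPM (prior count 2), with an exact 2-sided permutation over 35 splits. Near-identical copies are transcripts of at least 95% identity over 300 bases by blastn. Lists hold 209 gene entries in 7 pathway and 9 marker lists. From each pathway list up to 3 genes with the smallest p are named. Values per library were fixed for genes of an isoform ratio, with an unadjusted p under 0.05 or without overlap, and those of other members were added after seeing them. Members and lists were chosen with earlier results of these data known.

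Alternatives were other scalings, filters of none and of 50 counts in 3 libraries, DESeq2 1.42.0, limma-voom with quality weights (limma 3.58.1), a replicate block, other prior counts and leaving out each library. Division of the counts by 4 and leaving out WT replicate 3 with KO replicate 1 were chosen after seeing the data.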

Additional observations from a re-analysis of the deposited data

Results flagged for a closer look

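Among the 4 WT libraries, 6 of 41 quantities (the CPM of each gene and the isoform ratios) had 1 library whose gap to the nearest other took up more of the whole range than Dixon's critical value allows. Chance alone does this for about 1 group in 20, and the 3 KO libraries are too few for the test. WT replicate 3 was the library concerned for *Eno2* (75 CPM), *Aldoc* (11.7 CPM), *Slc2a3* (37.3 CPM) and *Hk1* (134 CPM), all high. WT replicate 2 was concerned for *Pfkfb3* (391 CPM, high) and for the log2 ratio of *Eno3* to *Eno1* (-6.31, low).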

How the results depend on the processing

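The count of 3 called genes was 0 with no filter or with the replicate block, 7 with the filter of 50 counts, with limma-voom or with counts divided by 4, 1548 with DESeq2, 1 without WT replicate 3 and KO replicate 1 together, and 0 to 1029 when 1 library was left out (above 0 only without KO replicate 2). The count of called genes of the pathway, 0, was 5 with DESeq2 and 0 to 4 when 1 library was left out, and stayed 0 in the other alternatives. *Hk3*, *Pfkm*, *Pfkp*, *Pfkfb4* and *Eno3* kept their direction in every alternative run. Signs turned only for genes and ratios that no test called, and the cause was not tested where no single library is named. Without WT replicate 3 and KO replicate 1 together the log2 difference turned to -0.058 for *Slc2a1*, 1.17 for *Slc2a3*, 0.24 for *Aldoc*, 0.26 for *Eno2*, 0.26 for *Pdha1*, 0.046 for the ratio of *Pfkm* to *Pfkp* and -0.15 for the ratio of *Slc16a3* to *Slc16a1*. With limma-voom the log2 difference turned to 0.88 for *Slc2a3*, 0.061 for *Gpi1*, 0.017 for *Tpi1*, 0.0033 for *Pgam1*, 0.047 for *Pdk4* and 0.29 for *Pdha1*. With the filter of 50 counts the log2 difference turned to 0.0063 for *Tpi1*. With counts divided by 4 the log2 difference turned to 0.0059 for *Tpi1*. When 1 library was left out in turn, log2 differences that changed sign ran from -0.066 to 0.43 for *Slc2a1*, from -0.48 to 1.40 for *Slc2a3*, from -0.72 to 0.026 for *Slc2a4*, from -0.45 to 0.068 for *Hk1*, from -0.18 to 0.041 for *Gpi1*, from -0.17 to 0.23 for *Pfkl*, from -0.099 to 0.62 for *Pfkfb3*, from -0.16 to 0.26 for *Aldoa*, from -1.95 to 0.60 for *Aldoc*, from -0.067 to 0.085 for *Tpi1*, from -0.097 to 0.23 for *Pgk1*, from -0.20 to 0.10 for *Pgam1*, from -0.24 to 0.52 for *Bpgm*, from -2.17 to 0.096 for *Eno2*, from -0.057 to 0.49 for *Slc16a1*, from -0.0059 to 1.12 for *Slc16a3*, from -0.066 to 0.42 for *Pdk1*, from -0.45 to 0.34 for *Pdha1*, from -0.29 to 0.69 for *Pdhb*, from -1.05 to 0.14 for the ratio of *Slc2a4* to *Slc2a1*, from -0.11 to 0.043 for the ratio of *Pfkm* to *Pfkp* and from -0.32 to 0.94 for the ratio of *Slc16a3* to *Slc16a1*. Same-numbered WT and KO libraries correlated at 0.054, 0.069 and 0.34 in their deviations from the group means, and KO replicate 1 correlated better with WT replicate 4 (0.089), so the numbers were not taken to pair the libraries. As mean differences within replicate numbers, the replicate block gave -1.39 for the ratio of *Ldhb* to *Ldha*, and no ratio changed sign.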

Other observations

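The striated muscle transcripts that were higher in KO differed in kind between the KO libraries. Values in KO replicates 1, 2 and 3 were high in the first and second for the heart genes *Myh6* (410.4, 499.9 and 0.738 CPM), *Actc1* (145, 168 and 1.79 CPM) and *Tnnt2* (111, 117 and 5.80 CPM). They were high in the third for the skeletal muscle genes *Acta1* (8.60, 0.856 and 61.6 CPM), *Myh1* (0, 0.300 and 22.3 CPM) and *Tnnt3* (1.02, 1.16 and 29 CPM). *Nppa*, the atrial natriuretic peptide, read 9.80, 333 and 0 CPM in these libraries and 0.204 CPM or less in WT. *Ckm*, the creatine kinase of both kinds of muscle, read 16, 17.5 and 30.0 CPM in KO and 4.07, 3.45, 2.48 and 3.49 CPM in WT, without overlap (log2 fold change 2.65, standard error 0.28, edgeR adjusted p = 0.0692). The choice of these genes was made after seeing their values.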
